A study of Mus musculus with 14 samples.

Results

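Transcripts of 10 genes of fetal macrophages and other leukocytes were followed in whole mouse fetuses of gestational day 12.5. The genes were Csf1r, Ptprc, Cx3cr1, Adgre1, C1qa, C1qb, Mrc1, Fcer1g, Itgal and Pik3cg; they were taken by symbol, and all 10 were found among the 18132 named genes of the deposited table. The fetuses were wild type, of the strain F1 C57BL/6Jx129S1/SvlmJ, and had received, as zygotes, an injection of nuclease-free water (the vehicle) or of a let-7f-5p mimic, an LNA-modified copy of that microRNA, before transfer to pseudo-pregnant CD1 dams. The titles of the let-7f samples name the treatment as Str - let7f, those of the vehicle samples carry no Str, and the titles do not explain it. The vehicle group held 5 females and 4 males and the let-7f group 3 females and 2 males, each sequenced as 1 poly-A RNA library. The series title asks about sex-specific growth after elevated let-7f. The mimic was given once to the zygote, so the values describe the fetus long after the injection and not the acute action of the microRNA. The labels tie no fetus to a dam or litter, so every p-value rests on fetus-to-fetus spread alone.

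Macrophages of the mid-gestation mouse fetus come from yolk sac and fetal liver progenitors and seed every organ, where they clear dying cells and, in the brain, become microglia. Their survival depends on the CSF1 receptor, which is bound by the growth factors CSF1 and IL34, and their identity on the transcription factor PU.1, encoded by Spi1. Lymphocytes are still scarce at this stage. In RNA of a whole fetus, fewer cells of a type and less RNA per cell cannot be told apart.

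No member differed between let-7f and vehicle fetuses after correction over all genes. The macrophage receptors Csf1r, Cx3cr1, Adgre1 and Mrc1, the complement genes C1qa and C1qb, the signalling chain Fcer1g and the pan-leukocyte gene Ptprc all had 95% intervals of the let-7f difference that included 0. The lymphoid and myeloid integrin gene Itgal lay lower, and the kinase gene Pik3cg higher, in let-7f fetuses of both sexes, without passing the correction. C1qa and C1qb had their 3 highest values in the 3 libraries with the highest levels of ribosomal protein transcripts, as did 15% of all tested genes.

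The injected microRNA is shown first, because a site for its seed is what could link it directly to a member. The letters are those given in the labels, in capitals the seed (bases 2 to 8), and they equal mature mmu-let-7f-5p in RefSeq. Below it stand the 2 matches found in the 3′ UTRs of the members, 24 bases each, with the matching letters in capitals (GENCODE M21 transcripts, GRCm38).
let-7f-5p mimic: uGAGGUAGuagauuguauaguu
Itgal site: ttccctcagctgtccCTACCTCct
Cx3cr1 site: tccattctagcatagTACCTCAgc

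The letters sought were CTACCTC (pairing with the whole seed) and TACCTCA (pairing with its first 6 bases, followed by A), which can overlap, both read on the transcript strand only. The Itgal match lay at bases 330 to 336 of a 3′ UTR of 1527 bases on chromosome 7. The Cx3cr1 match lay at bases 1048 to 1054 of a 3′ UTR of 2587 bases on chromosome 9. The other 8 members had none in the longest coding transcript of the annotation. Of 15431 tested genes with such a 3′ UTR, 2548 (16.5%) held at least 1 match. A match is a run of letters and shows no binding.

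The levels of the members, per length of transcript, ran over an order that held in part (GENCODE lengths, normalized value per 1000 bases, mean ± SD over 14 libraries). C1qb, a chain of the first complement component, stood highest at 532 ± 206, and C1qa followed at 265 ± 118, below C1qb in 14 of 14 libraries. Csf1r had 228 ± 58.45 and could not be placed against C1qa, which was higher in 7 of 14 libraries. Fcer1g, the shared signalling chain of Fc receptors, had 167 ± 57.7, Mrc1, the mannose receptor, 140.0 ± 24.9, and Cx3cr1, the receptor for fractalkine, 117 ± 15.9. Fcer1g exceeded Mrc1 in 7 of 14 libraries, and Mrc1 exceeded Cx3cr1 in 12 of 14. Adgre1, an adhesion receptor widely used as a macrophage marker, had 68.7 ± 22.6 and lay below Cx3cr1 and above Itgal in 14 of 14 libraries each. Itgal (33.8 ± 10.5), Pik3cg (33.7 ± 16.2) and Ptprc (25.6 ± 5.86) had the lowest means, with Pik3cg reaching 60.9 against a lowest Adgre1 value of 28.3. Itgal exceeded Pik3cg in 7 of 14 libraries, and their order differed between the treatments pooled here. Before division by length, Itgal had means of 203 in vehicle and 128 in let-7f libraries, and Pik3cg 148 and 286.

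**Figure D1:**
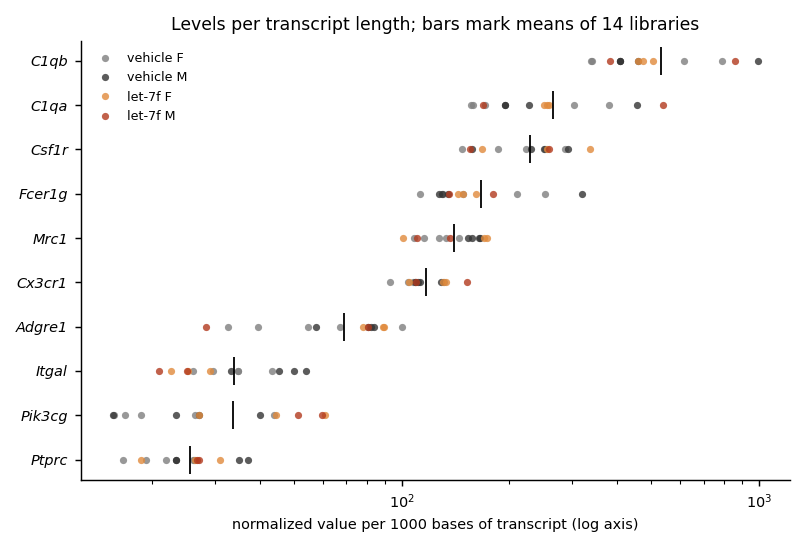
Each point is 1 library and each row 1 gene; the horizontal log axis gives the normalized value per 1000 bases of transcript, and bars mark the mean of 14 libraries. C1qb stands highest at 532 and Ptprc lowest at 25.6, with overlapping neighbours in between.

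The recovered reads behind these levels ranged from 52 (Adgre1) to 1652 (Csf1r) for a member in a library. Summed over the named genes, a library held 27709934 to 42898166 recovered reads. Over all 14 libraries, both treatments pooled, the coefficient of variation ran from 13.6% for Cx3cr1 to 48.2% for Pik3cg, with C1qa at 44.3%. Within treatments the order differed: C1qa had 43.0% in vehicle and 48.4% in let-7f libraries, and Pik3cg 41.5% and 28.4%. Of 32 further macrophage and microglia genes read beside the members, 29 could be tested. Vsig4 and Fcrls were not analysed here, and Cd163 had a mean value below 10. Their summed value was 10693 to 15502 in vehicle and 12140 to 14642 in let-7f libraries. None of the 30 with values was at 0 in all libraries. The same held for every other list, trophoblast genes included, so these values set no cell type apart. Tmem119 and Lgmn had the highest mean values among them, and both are also expressed outside macrophages. Of the 18 lymphocyte genes on the list, 13 could be tested, and Cd3e had a mean value below 10.

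Some libraries stood apart, and they bear on the members. Let-7f male 1, vehicle male 2 and vehicle female 1 had the highest scores for 40 ribosomal protein genes (1.85, 0.88 and 0.36, as the mean log2 deviation from each gene's mean), while the other 11 libraries lay between -0.531 and 0.15. In vehicle female 2 the liver score was -5.8 and the erythroid score -1.66, the lowest of the 14 libraries, and its members' score of -0.50 and pan-leukocyte score of -0.74 were also the lowest. Let-7f male 1 also had the fewest recovered reads (27709934) and the fewest genes above 0 (17738, against 18027 to 18075 elsewhere). In this library 1 read stood for a normalized value of 1.76, against 0.794 to 1.07 elsewhere. The part of depth or scaling in its values was not tested. Vehicle male 1 had a trophoblast score of 1.72, with the next at 0.30. Values without these 5 libraries are given where they change a direction. The 5 include let-7f male 1, so let-7f male 2 is then the only let-7f male.

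Csf1r, the receptor that fetal macrophages need to survive, had values of 1044, 874, 1185, 1351 and 693 in the vehicle females and of 1083, 741, 1177 and 1370 in the vehicle males. It had 1197, 1586 and 789 in the let-7f females and 728 and 1214 in the let-7f males. The groups overlapped throughout, and the lowest values belonged to vehicle female 5 and let-7f male 1. The let-7f difference averaged over both sexes was 0.00425 on the log2(value + 1) scale (SE 0.219, 95% interval -0.469 to 0.477, limma adjusted p = 0.999). Its sign turned without 6 of the 14 libraries, each left out in turn.

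Cx3cr1, which holds macrophages and microglia near fractalkine-bearing cells, had 490 ± 62.2 (SD, n = 5) in vehicle females, 518 ± 42 (SD, n = 4) in vehicle males, 551 ± 69.6 (SD, n = 3) in let-7f females and 590 ± 136 (SD, n = 2) in let-7f males. Its let-7f difference was 0.17 (SE 0.116, 95% interval -0.0794 to 0.423, limma adjusted p = 0.947), the narrowest interval of the members. The estimate for this gene, which carries a let-7 match, lay above 0 with an interval that included 0.

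Adgre1 had 217, 106, 177, 325 and 128 in vehicle females and 260, 270, 265 and 186 in vehicle males. In let-7f females it had 288, 252 and 287, and in let-7f males 91.7 and 261. The let-7f females lay in the upper part of the vehicle range, and the low value of 91.7 belonged to let-7f male 1, where ribosomal protein transcripts were highest. The differences were 0.64 in females (SE 0.363, limma adjusted p = 1) and -0.65 in males (SE 0.43, limma adjusted p = 0.487), and the change in males minus that in females was -1.29 (SE 0.563, limma adjusted p = 0.522). When let-7f male 2 was omitted, so that the remaining let-7f male was given the spread of the other groups, Adgre1 was called lower in males (-1.40, limma adjusted p = 0.0443) and in the difference between the sexes (-2.04, limma adjusted p = 0.0294), in fits that called 4389 and 3207 of 17421 genes. Without let-7f male 1, which left let-7f male 2 alone in its group, the male difference was 0.10.

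Mrc1, an endocytic receptor of tissue macrophages that liver sinusoidal and lymphatic endothelium also expresses, had 683, 580, 713, 779 and 619 in vehicle females and 883, 822, 843 and 891 in vehicle males. It had 914, 934 and 543 in let-7f females and 592 and 732 in let-7f males. Vehicle males lay above all vehicle females and above both let-7f males, whereas let-7f females overlapped vehicle females. Among vehicle fetuses the male minus female difference was 0.36 (SE 0.16, limma adjusted p = 1). The let-7f difference was 0.21 (SE 0.174, limma adjusted p = 1) in females, -0.38 (SE 0.207, limma adjusted p = 0.447) in males and -0.09 (SE 0.135, 95% interval -0.381 to 0.202, limma adjusted p = 0.947) over both. The 10 tested scavenger and lymphatic endothelial genes, 8 of which lay higher in vehicle males than in vehicle females (median log2 difference 0.33, against -0.0123 over all tested genes), were measured in the same libraries, and their part in the Mrc1 values was not tested.

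C1qa and C1qb encode chains of the complement component that macrophages make to tag dying cells, and C1qc encodes its partner chain. C1qb had 861, 371, 446, 673 and 368 in vehicle females and 443, 1083, 445 and 499 in vehicle males. It had 499, 516 and 551 in let-7f females and 934 and 416 in let-7f males. The 3 highest values belonged to vehicle male 2, let-7f male 1 and vehicle female 1, the same libraries that led in ribosomal protein transcripts, and no other library exceeded 673. C1qa had 562 in let-7f male 1, 473 in vehicle male 2 and 396 in vehicle female 1, and between 163 and 315 in the other 11 libraries. The let-7f difference over both sexes was 0.0761 for C1qb (SE 0.282, 95% interval -0.533 to 0.686, limma adjusted p = 0.974). It was 0.25 for C1qa (SE 0.318, 95% interval -0.44 to 0.933, limma adjusted p = 0.947). Without let-7f male 1, which left let-7f male 2 alone in its group, these values were -0.215 and -0.173.

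Fcer1g had 172, 89.3, 102, 143 and 76.7 in vehicle females and 92, 219, 86.8 and 88.8 in vehicle males. It had 102, 110.4 and 98 in let-7f females and 123 and 92.5 in let-7f males. Its highest values again belonged to vehicle male 2 and vehicle female 1, followed by vehicle female 4. The let-7f difference was -0.0864 (SE 0.255, 95% interval -0.637 to 0.464, limma adjusted p = 0.966).

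The transcripts of these genes are short, at 1040 bases for C1qa, 1088 for C1qb and 683 for Fcer1g, and the other 7 members run from 3238 to 5871 bases. Of the 10 members, C1qa and C1qb had their 3 highest values in exactly those 3 libraries. So did 9 of 29 tested genes of the macrophage list, among them Aif1, Cd68, Tyrobp, Trem2, Lyz2 and Pf4, and 2609 of 17400 tested genes (15%). Tyrobp, an adaptor that works like Fcer1g, had 212, 125 and 140 in vehicle male 2, let-7f male 1 and vehicle female 1 and 48.1 to 102 elsewhere. The part of ribosomal protein level or transcript length in these values was not tested.

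**Figure D2:**
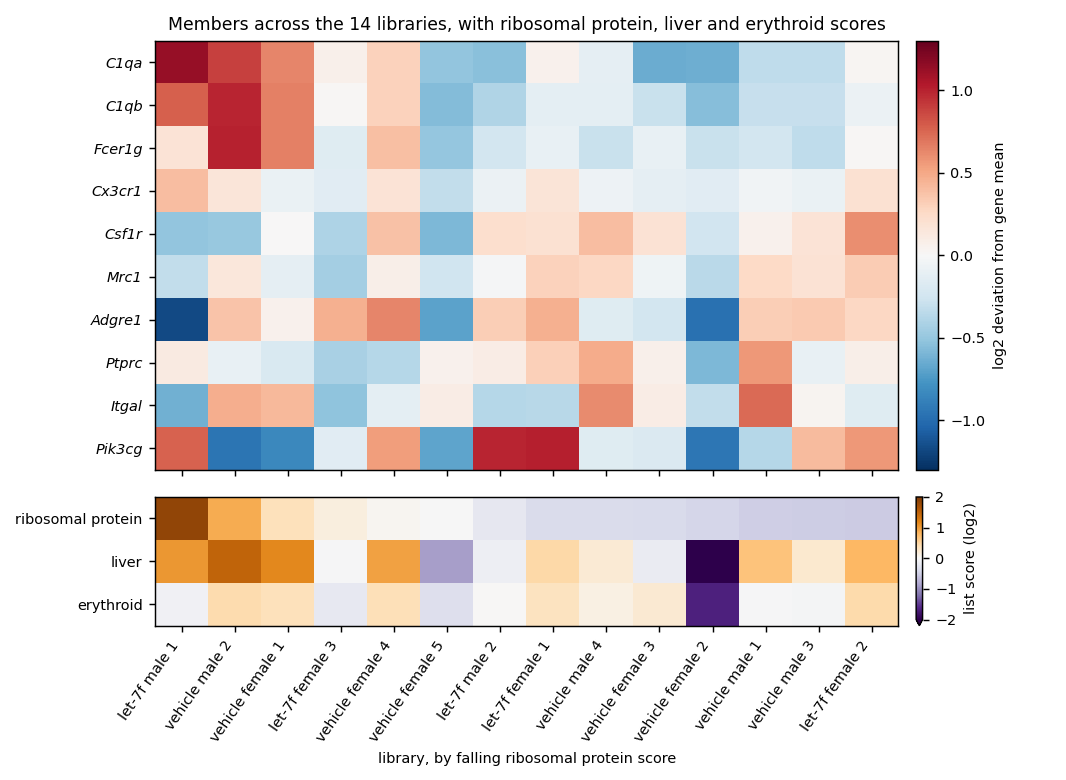
Columns are the 14 libraries in order of falling ribosomal protein score; the upper rows give each member's log2 deviation from its own mean and the lower rows the ribosomal protein, liver and erythroid scores, with the liver score of -5.8 in vehicle female 2 drawn at the end of its scale. C1qa and C1qb are highest in the first 3 columns, and Csf1r is not.

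The promoters of C1qb and Fcer1g are shown because these genes, on chromosomes 4 and 1, had similar patterns over the 14 libraries (Pearson's r = 0.908, a description with no test). Each runs from 250 bases before to 50 after the start of the gene, 5′ to 3′ on the gene's strand (RefSeq, GRCm38.p6). Capitals mark the letters GAGGAA or, on the other strand, TTCCTC, a core of the PU.1 motif.
C1qb promoter, chr4:136886151-136886450, minus strand: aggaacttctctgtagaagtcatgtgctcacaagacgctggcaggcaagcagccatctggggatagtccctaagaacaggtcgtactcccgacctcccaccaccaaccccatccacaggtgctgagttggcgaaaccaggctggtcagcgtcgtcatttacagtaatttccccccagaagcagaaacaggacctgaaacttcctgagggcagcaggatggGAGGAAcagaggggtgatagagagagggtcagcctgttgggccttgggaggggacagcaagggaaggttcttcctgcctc
Fcer1g promoter, chr1:171234300-171234599, minus strand: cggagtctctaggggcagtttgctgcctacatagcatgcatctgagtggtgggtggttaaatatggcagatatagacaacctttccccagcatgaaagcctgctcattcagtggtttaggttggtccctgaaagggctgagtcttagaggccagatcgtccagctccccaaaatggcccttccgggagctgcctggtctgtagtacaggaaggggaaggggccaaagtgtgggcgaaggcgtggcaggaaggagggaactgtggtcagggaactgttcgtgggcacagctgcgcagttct

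The letters occurred once in the C1qb promoter and not in that of Fcer1g, and in 5 of 8 promoters listed for 6 of the members. Ptprc and Pik3cg are listed with overlapping promoters, and the same Pik3cg letters are counted in each of its own. By gene, Ptprc, Mrc1, C1qb and Pik3cg held the letters, and Fcer1g and Cx3cr1 did not. Over all genes, the letters occurred in 9289 of 32851 promoters (28.3%). The promoter letters are a description and say nothing of PU.1 binding.

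Ptprc, the phosphatase carried by all white blood cells, had values of 84 to 188 in vehicle and 94.5 to 157 in let-7f libraries, with overlapping groups. Its let-7f difference was 0.043 (SE 0.181, 95% interval -0.348 to 0.434, limma adjusted p = 0.977). In vehicle fetuses it was 151 ± 37.3 (SD, n = 4) in males and 112 ± 21.4 (SD, n = 5) in females, which differed by 0.42 on the log2 scale (SE 0.214, limma adjusted p = 1). The lowest value, 84, belonged to vehicle female 2, the library with the lowest liver score.

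Itgal encodes the alpha chain of the leukocyte integrin LFA, which pairs with the product of Itgb2 and binds ICAM proteins on other cells. It had 227, 136, 181, 155 and 181 in vehicle females and 282, 236, 174 and 260 in vehicle males. It had 132, 152 and 118 in let-7f females and 109 and 131 in let-7f males. All 5 let-7f fetuses lay below the vehicle mean of their sex; both let-7f males lay below every vehicle male, while the let-7f females overlapped the vehicle females. The log2 difference was -0.38 in females (SE 0.201, limma adjusted p = 1), -0.96 in males (SE 0.239, limma adjusted p = 0.447) and -0.67 over both (SE 0.156, 95% interval -1.01 to -0.334, limma adjusted p = 0.947). DESeq2 on the recovered reads gave -0.68 over both sexes (adjusted p = 0.0982). Without let-7f male 2, limma called Itgal over both sexes (-0.74, adjusted p = 0.0415) and in males (-1.09, adjusted p = 0.0248), in fits that called 868 and 4389 of 17421 genes. Without the 5 libraries that stood apart, Itgal was -0.532 over both sexes, with let-7f male 2 as the only let-7f male.

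Pik3cg encodes the catalytic subunit of a phosphoinositide kinase that chemokine receptors activate in leukocytes. It had 98.8, 91.9, 155, 258 and 109 in vehicle females and 137, 91.1, 235 and 159 in vehicle males. It had 357, 261 and 159 in let-7f females and 301 and 352 in let-7f males. All 5 let-7f fetuses lay above the vehicle mean of their sex, both let-7f males above every vehicle male, and the lowest let-7f female inside the vehicle range. The log2 difference was 0.90 in females (SE 0.375, limma adjusted p = 1), 1.14 in males (SE 0.445, limma adjusted p = 0.447) and 1.02 over both (SE 0.291, 95% interval 0.39 to 1.65, limma adjusted p = 0.947). The change in males minus that in females was 0.25 (SE 0.582, limma adjusted p = 0.85). Without the 5 libraries that stood apart the difference over both sexes was 0.725, with let-7f male 2 as the only let-7f male.

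Itgal and Pik3cg had already stood among the smallest p-values when all genes of these data were ranked, so their differences are a description and no independent support. Of the 10 members, 2 had an unadjusted limma p under 0.05 over both sexes, against 483 of 17400 genes (2.78%), and 0 passed the correction. Pik3cg was 1 of 223 genes with such a p that lay higher (1.28%) and Itgal 1 of 260 that lay lower (1.49%). The correction passed 0 of 17400 genes (0%) with limma, 0 of 17400 (0%) with edgeR and 8 of 17375 (0.046%) with DESeq2, none of them a member. In males, groups that did not overlap placed Pik3cg higher and Itgal and Mrc1 lower in let-7f, against 4.14% of all genes higher and 5.9% lower; in females no member was separated that way, against 0.787% and 0.707%. In vehicle fetuses Mrc1 lay higher in every male than in any female, as did 0.672% of all genes, and no member lay lower in every male, as did 0.759%.

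The single comparisons gave these counts. In females 0 members passed, against 1 of 17400 genes (0.00575%), with 1 member (Pik3cg, higher) at an unadjusted limma p under 0.05 against 0.81% of genes, or 0.494% counting those higher; edgeR passed 0 genes and DESeq2 2. In males 0 members passed, against 0 of 17400 (0%), with 2 members at an unadjusted limma p under 0.05 against 1874 genes (10.8%), Pik3cg among the 5.37% higher and Itgal among the 5.4% lower; edgeR passed 0 genes and DESeq2 58. For the difference between the sexes in the let-7f change, 0 members passed, against 0 of 17400 (0%), with 2 members (Adgre1 and Mrc1) at an unadjusted limma p under 0.05 against 8.53% of genes, both among the 4.41% below 0 and none among the 4.12% above; edgeR passed 0 and DESeq2 27. Between vehicle males and females 0 members passed with limma, against 7 of 17400 (0.0402%), with 2 members (Itgal and Mrc1) at an unadjusted p under 0.05 against 2.63%, both among the 1.39% higher in males and none among the 1.24% lower; edgeR passed 5 genes (0.0287%) and DESeq2 12 (0.0691%). All 10 members lay higher in vehicle males (median log2 difference 0.18), against 8141 of 17400 tested genes (median -0.0123). In the same contrast 21 of 29 macrophage and microglia genes (median 0.15) and 14 of 21 pan-leukocyte genes (median 0.14) lay higher. So did 14 of 14 liver genes and 12 of 12 erythroid genes. With single vehicle libraries left out, 7 to 10 members lay higher: 7 without vehicle male 2 (median 0.321), 8 without vehicle female 5 (median 0.101) and 9 without vehicle female 2 (median 0.0788).

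**Figure D3:**
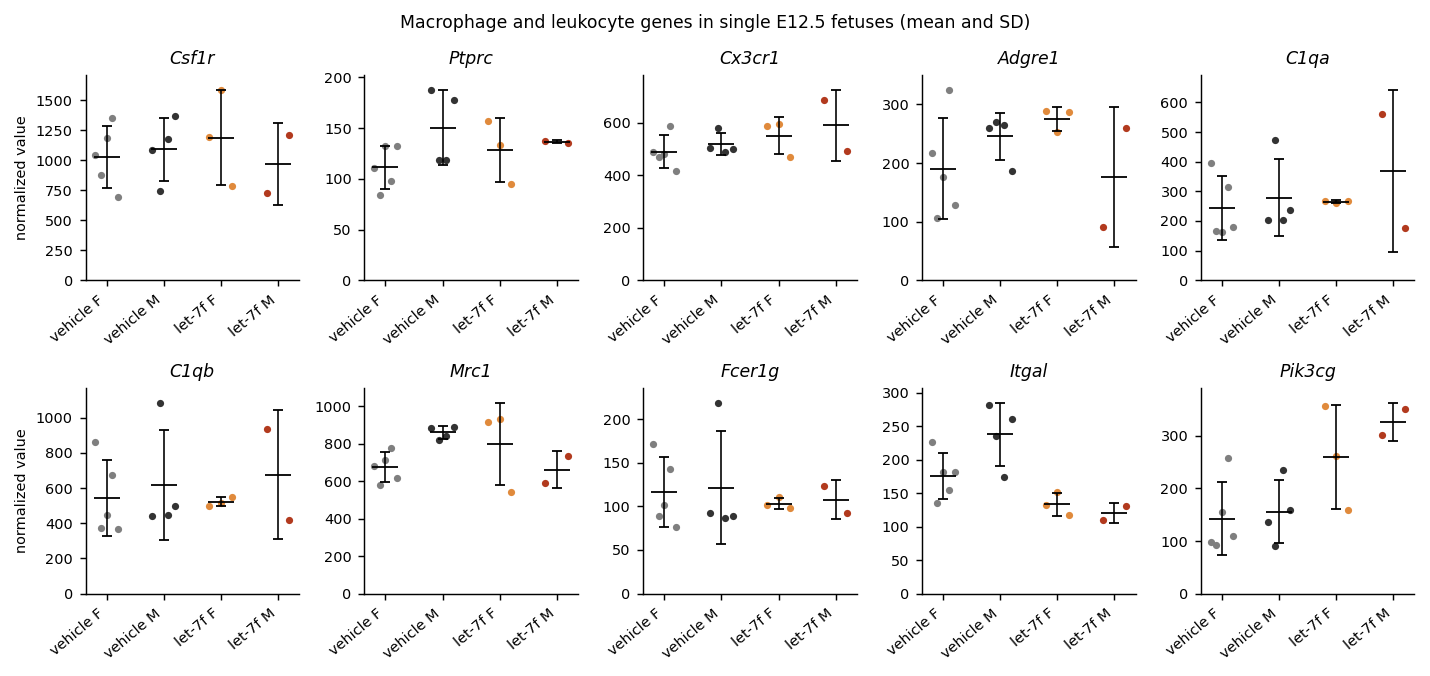
Each panel is 1 gene and each point 1 fetus, with the normalized value on an axis from 0; horizontal marks and bars give the mean and SD of the group (5 and 4 vehicle, 3 and 2 let-7f fetuses). Itgal is lower and Pik3cg higher in let-7f fetuses with partial overlap in females, and the other members overlap in at least 1 sex.

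**Figure D4:**
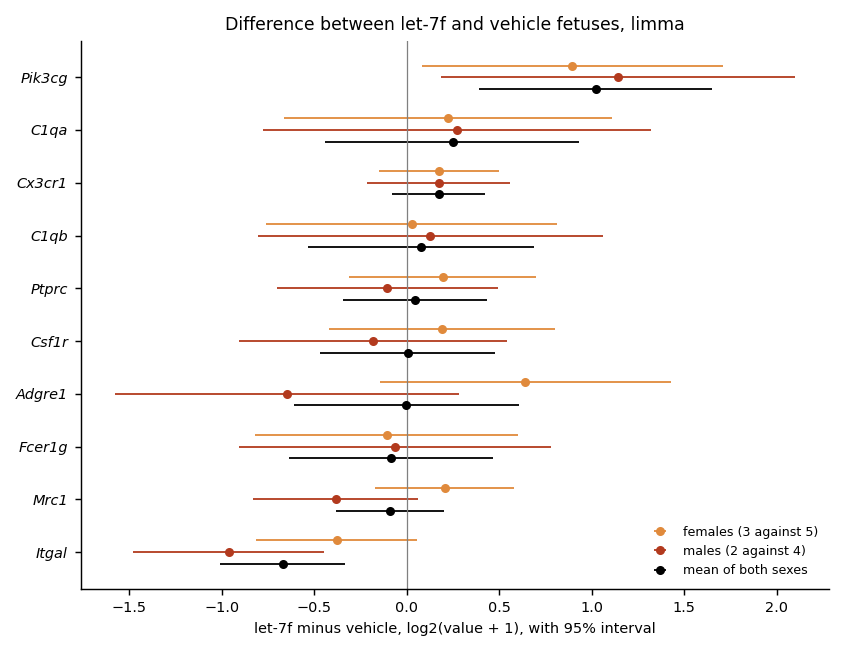
Points give the let-7f minus vehicle difference on the log2(value + 1) scale and lines its 95% interval, for females, males and the mean of both. The intervals over both sexes leave out 0 for Pik3cg (0.39 to 1.65) and Itgal (-1.01 to -0.334), before correction over 17400 genes.

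The genes that work with the members were read beside them, and 0 of 19 tested partners passed in the let-7f comparison over both sexes, 11 lying higher and 8 lower (median log2 difference 0.012, against 0.00605 over all genes). Among the ligands, Csf1 had -0.138 (SE 0.151), Il34 0.77 (SE 0.357), and Cx3cl1, which encodes fractalkine, 0.17 (SE 0.271). Il34 was a low gene, with 45.8 in let-7f male 1 and 6.45 to 28.1 elsewhere. Of the ICAM genes, Icam1 had -0.0179 (SE 0.111) and Icam2 0.32 (SE 0.201), and Itgb2, the beta chain that Itgal needs, had -0.07 (SE 0.341). The interval of Itgb2 was wide (-0.807 to 0.667), and its values ran from 37.6 in vehicle female 2 to 206 in let-7f female 2.

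The regulatory subunits of the Pik3cg kinase, Pik3r5 and Pik3r6, had 0.00169 (SE 0.14) and 0.14 (SE 0.166), and Pik3cd, the related leukocyte subunit, -0.0121 (SE 0.341). C1qc had 0.0563 (SE 0.247), and the proteases that join C1q, C1ra and C1s1, had 0.18 (SE 0.233) and 0.13 (SE 0.389). The Fc receptor genes Fcgr1 and Fcgr3 had 0.012 (SE 0.301) and -0.0124 (SE 0.182), and Tyrobp had -0.167 (SE 0.283). Spi1, the PU.1 gene, had 0.0624 (SE 0.258). Among relatives of members, Mrc2 had 0.0847 (SE 0.1), Adgre5 -0.052 (SE 0.197) and Cd22, a lectin of B cells that Ptprc can bind, -0.0683 (SE 0.372). Fcgr4 had a mean value below 10 and was not tested.

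Wider lists of blood and tissue genes were read in the same comparison. Of 29 tested macrophage and microglia genes, 0 passed, 12 lay higher and 17 lower (median -0.0214); Siglec1, a sialic acid receptor of macrophages, had 0.60 (SE 0.302) with 192 in let-7f male 1 and 30.7 to 71 elsewhere, and the lysosomal Cd68 had 0.30 (SE 0.179). Lgmn and Tmem119 had -0.0319 (SE 0.147) and 0.0418 (SE 0.106). Of 21 tested pan-leukocyte genes, 0 passed and 14 lay higher (median 0.0368), with the actin regulators Coro1a at 0.14 (SE 0.213) and Lcp1 at 0.11 (SE 0.136), Cytip at 0.87 (SE 0.47) and the transcription factor gene Runx3 at -0.474 (SE 0.24). The 8 tested granulocyte and monocyte precursor genes (median 0.31), 13 lymphocyte genes (0.0818), 12 megakaryocyte genes (0.13), 12 stem and progenitor genes (-0.0474) and 4 mast cell genes (0.0325) had 0 members past the correction. So had the endothelial (0.10, 13 genes), scavenger endothelial (-0.0248, 10 genes), erythroid (0.0983, 12 genes), liver (0.55, 14 genes) and trophoblast lists (-0.0881, 6 genes). The liver median was 1.46 in females and -0.037 in males. Vehicle female 2 had a liver score of -5.8, against -0.887 to 1.16 in the other vehicle females, and its part in the median was not tested. The ribosomal protein list had a median of 0.40, with 40 of 40 genes higher, but this mean hides opposite sexes. In females 0 of 40 lay higher (median -0.155) and in males 40 of 40 (median 0.91), where let-7f male 1 had a score of 1.85 and let-7f male 2 one of -0.212.

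How the members moved with Csf1r was examined over the 14 libraries, as 9 correlations. Mrc1 had the highest, with Pearson's r = 0.715 (permutation p = 0.00582, adjusted p = 0.0524) and Spearman's rho = 0.701 (permutation p = 0.00668, adjusted p = 0.0601), and r = 0.619 without the 2 libraries farthest from the median of Csf1r, vehicle female 5 and let-7f male 1. Adgre1 followed with r = 0.504 (permutation p = 0.0731, adjusted p = 0.248) and rho = 0.336 (permutation p = 0.242, adjusted p = 0.486), and its r dropped to 0.158 without those 2 libraries, on which it rests. Pik3cg had r = 0.48 (permutation p = 0.0826, adjusted p = 0.248) and rho = 0.495 (permutation p = 0.0746, adjusted p = 0.336), with r = 0.661 without the 2. The remaining r lay between -0.286 (C1qa) and 0.291 (Ptprc), with adjusted permutation p from 0.558 to 0.656. None of the 9 passed after adjustment. Within the 9 vehicle libraries r was 0.53 for Mrc1 (exact permutation p = 0.148, adjusted p = 0.665) and 0.765 for Pik3cg (exact permutation p = 0.011, adjusted p = 0.0987). Without the 5 libraries that stood apart, Cx3cr1 (r = 0.783, exact permutation p = 0.00456, adjusted p = 0.0411) and Mrc1 (r = 0.853, exact permutation p = 0.0106, adjusted p = 0.0479) passed by Pearson's r. By Spearman's rho, Cx3cr1 passed (0.90, exact permutation p = 0.00203, adjusted p = 0.0183) and Mrc1 did not (0.75, exact permutation p = 0.0255, adjusted p = 0.115). These 5 libraries were chosen with earlier results of these data known, so the passes without them are a description. Over all 14 libraries Cx3cr1 had r = 0.147.

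The genes most like a member in pattern were ranked by Pearson's r of log2(value + 1) over the 14 libraries, among 14733 other genes with a mean value of at least 50. For Csf1r they were Dsc3 (0.932), Kcnab2 (0.90), Tmem108 (0.889), Syne3 (0.87) and Taok3 (0.869), none of them on the macrophage or leukocyte lists. For Itgal they were Tdrd7 (0.827), Ocln (0.797) and Nap1l3 (0.791), and for Pik3cg they were Gabrb1 (0.787), Ccne2 (0.765) and Tsbp1 (0.762). For C1qb, added after its values were seen, they were H2bc4 (0.972), Mustn1, Ypel3, Cltb and Macrod1 (0.967 each). These likeness values are a description over libraries that share their tissue content and scaling, and carry no test.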

How the data were processed

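Poly-A RNA of 14 whole fetuses was sequenced, 1 library each. The deposited values are a normalized signal per gene, made by the authors by dividing read counts by size factors. Per the submitters' processing notes, the tools were Trimmomatic 0.39, kallisto 0.50.1, FastQC 0.12.1, MultiQC 1.28 and DESeq2 1.48.2, with the build GRCm39; the aims and order of these steps are not given in the sources used here. Whole reads were recovered from the steps of the values, for 100% of values within 1e-06.

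Genes with a mean value of at least 10 (17400 of 18132) were tested with limma 3.58.1 (R 4.3.3) on log2(value + 1), with 1 mean per group of treatment and sex, with the Benjamini-Hochberg correction across every tested gene and a threshold of 0.05. The mean of both sexes gives each sex equal weight. Differences on this scale understate the change of low genes. edgeR 4.0.16 and DESeq2 1.42.0 were run on the recovered reads as alternatives, beside other pseudocounts, filters, scalings and fits without single libraries. The limma fit alone was tested on simulated data. Correlations used permutation tests in scipy 1.17.1. Transcripts and 3′ UTRs came from GENCODE M21 (GRCm38), a build other than the authors'.

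Members, lists and the 5 libraries that stood apart were chosen with earlier results of these data known. Named list genes were the 2 of highest mean and the 2 of smallest p in a list; the genes most like C1qb were added after its values were seen. One row without a gene name held 0.0180% to 0.0334% of the reads and was left out. None of the 20 pairs of libraries within a group agreed within sampling noise.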

Additional observations from a re-analysis of the deposited data

Results flagged for a closer look

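In 20 groups of 4 or 5 vehicle fetuses (10 genes in 2 sexes), 5 single values lay far from the rest of their group by Dixon's ratio. Chance flags about 1 in 20 groups. These groups share the same fetuses, and genes that vary together can be flagged together, so the 5 cannot be set against that rate. All 5 were among the 4 vehicle males, where the ratio has to exceed 0.829. Vehicle male 2 was high in C1qb (1083, ratio 0.913), C1qa (473, ratio 0.876), Fcer1g (219, ratio 0.961) and Cx3cr1 (580.1, ratio 0.837). This library also had the second highest ribosomal protein score, 0.88, and the highest liver score, 1.47; the part of either in these values was not tested. Vehicle male 4 was low in Adgre1 (186, ratio 0.88).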

How the results depend on the processing

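Of 686 recomputed member differences, 642 kept their direction and side of the threshold, 4 passed it and 40 turned sign. They came from 25 results: all members over both sexes, and only some chosen members in the other comparisons. Leaving out a library outside the groups compared does not change a difference, so part of the 642 could not have turned sign. Over both sexes the sign turned for Csf1r with scaling to the 75th percentile (-0.0132) and with library weights (-0.0217), a fit that converged with a warning. Library weights also turned Adgre1 (0.0735), Mrc1 (0.00994), Fcer1g (0.11) and, in the difference between the sexes, Pik3cg (-0.39). Leaving out the 5 libraries that stood apart turned Adgre1 (0.364, and 0.229 in males), Fcer1g (0.0328), C1qb (-0.0289) and Ptprc (-0.0138), and the correlations with Csf1r of C1qa (0.289), C1qb (0.425) and Fcer1g (0.543). Without these 5 libraries, let-7f male 2 was the only let-7f male in the fits. By Pearson's r, 2 correlations then passed in place of 0, and by Spearman's rho only that of Cx3cr1. The 5 were chosen with earlier results of these data known, so these passes are a description. Adgre1 was 0.033 and 0.0417 with edgeR (TMM and RLE) and 0.0406 with DESeq2. The cause was not tested. With single libraries left out, the differences over both sexes ran from -0.18 to 0.188 for Csf1r, -0.0372 to 0.145 for Ptprc, 0.0537 to 0.29 for Cx3cr1, -0.377 to 0.372 for Adgre1, -0.173 to 0.666 for C1qa, -0.215 to 0.367 for C1qb, -0.166 to 0.038 for Mrc1, -0.19 to 0.0742 for Fcer1g, -0.743 to -0.607 for Itgal and 0.885 to 1.18 for Pik3cg. In males they ran from -1.4 to 0.102 for Adgre1 and -1.11 to -0.834 for Itgal, and between the sexes from -2.04 to -0.539 for Adgre1 and -0.0631 to 0.517 for Pik3cg. Members called ran from 0 to 1 over both sexes, 0 to 2 in males and 0 to 1 between the sexes, above 0 only without let-7f male 2. Over all genes, limma called 0 over both sexes, 0 in males and 0 between the sexes; without let-7f male 2 it called 868, 4389 and 3207, and DESeq2 on all libraries called 8, 58 and 27.

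Same-numbered libraries did not deviate together (r from -0.576 to 0.346 over 16 pairs, and 1 of 14 libraries closest to its own number). Deviations from the mean of a small group are constrained, and those of the 2 let-7f males mirror each other. The check therefore cannot show whether the numbers pair the fetuses. With the replicate block, 0 members were called, Itgal was -0.706, Pik3cg 1.2, Adgre1 0.0221 and C1qb -0.0183 over both sexes. With the block, 8 of 10 members lay higher in vehicle males (median 0.101). The let-7f males numbered 2, and the fewest reads for a member in a library were 52 (Adgre1 in let-7f male 1).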
